A study of Mus musculus with 6 samples.

Results

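Aminoacyl-tRNA synthetases join each amino acid to its transfer RNA, and every protein made by a ribosome depends on them. One set of enzymes serves the cytosol and another, also encoded in the nucleus, is imported into mitochondria. Many cytosolic synthetase genes are known targets of ATF4, the transcription factor of the PERK branch of the unfolded protein response and of amino acid shortage, whereas the ER chaperone genes that ATF6 is known for are a separate programme. The 37 genes described here are all rows of the authors' deposited comparison, 17385 genes in all, that carry a synthetase symbol. They are 20 cytosolic enzymes (symbols of 1 letter and "ars", with Eprs, Farsa and Farsb) and 17 mitochondrial enzymes (the same symbols ending in 2). The rule used symbols alone and no measured value, but it was chosen with earlier results of these data known.

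Hippocampal messenger RNA was sequenced from 3 sATF6-KI and 3 control mice. All 6 mice were C57BL/6, 2 months old and carried Emx1-Cre (spelled EMX1-Cre for the controls), a recombinase known to act in the forebrain excitatory lineage. The sATF6-KI mice also carried Rosa26-sATF6-MER, an allele for short-form ATF6 joined to MER, a modified ligand-binding part of the estrogen receptor. Whether a ligand was given is not stated in the sources used here. ATF6 is an ER membrane protein whose freed cytosolic part acts as a transcription factor, and the series' title names the effect of short-form ATF6 in neurons as its subject.

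Every value of a single gene below is a mean over all libraries or a fold change of sATF6-KI over control. The columns per library could not be given to mice, so no spread between mice is shown. The error after ± is the Wald error of a log2 fold change, obtained by dividing it by its Wald statistic. Calls were made where DESeq2's adjusted p, as deposited, was under 0.05. That threshold called 5.34% of all genes, 3.41% higher and 1.93% lower in sATF6-KI. Hippocampus is a mixed tissue, so fewer cells of a type and less RNA per cell cannot be told apart in these values.

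Of the 37 synthetase genes, Wars alone was called in the authors' deposited table. Wars, the cytosolic tryptophanyl-tRNA synthetase, rose 1.24-fold in sATF6-KI hippocampus. By the authors' DESeq2 test none of the other 36 passed in either direction, and the unadjusted p was under 0.05 for 1 with a higher and 8 with a lower level. Over all 17385 genes the unadjusted p was under 0.05 for 1425 with a higher and 1319 with a lower level. The share called, 1 gene of 37, is read against 5.34% of all genes and is not a result about the family. For 30 of 37 genes the upper end of the 95% interval lay below a 1.2-fold rise, and for 36 of 37 below a 1.5-fold rise, against 9076 and 12989 of all 17385 genes. Intervals narrow with level, and 7006 protein-coding genes had a mean normalized level (baseMean) of at least 1000. Of these, 86.3% lay below the 1.2-fold rise, against 81.1% of the 37, not all of which reach that level. The unadjusted p was under 0.05 for 575 higher and 1083 lower genes of the 7006.

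**Figure D1:**
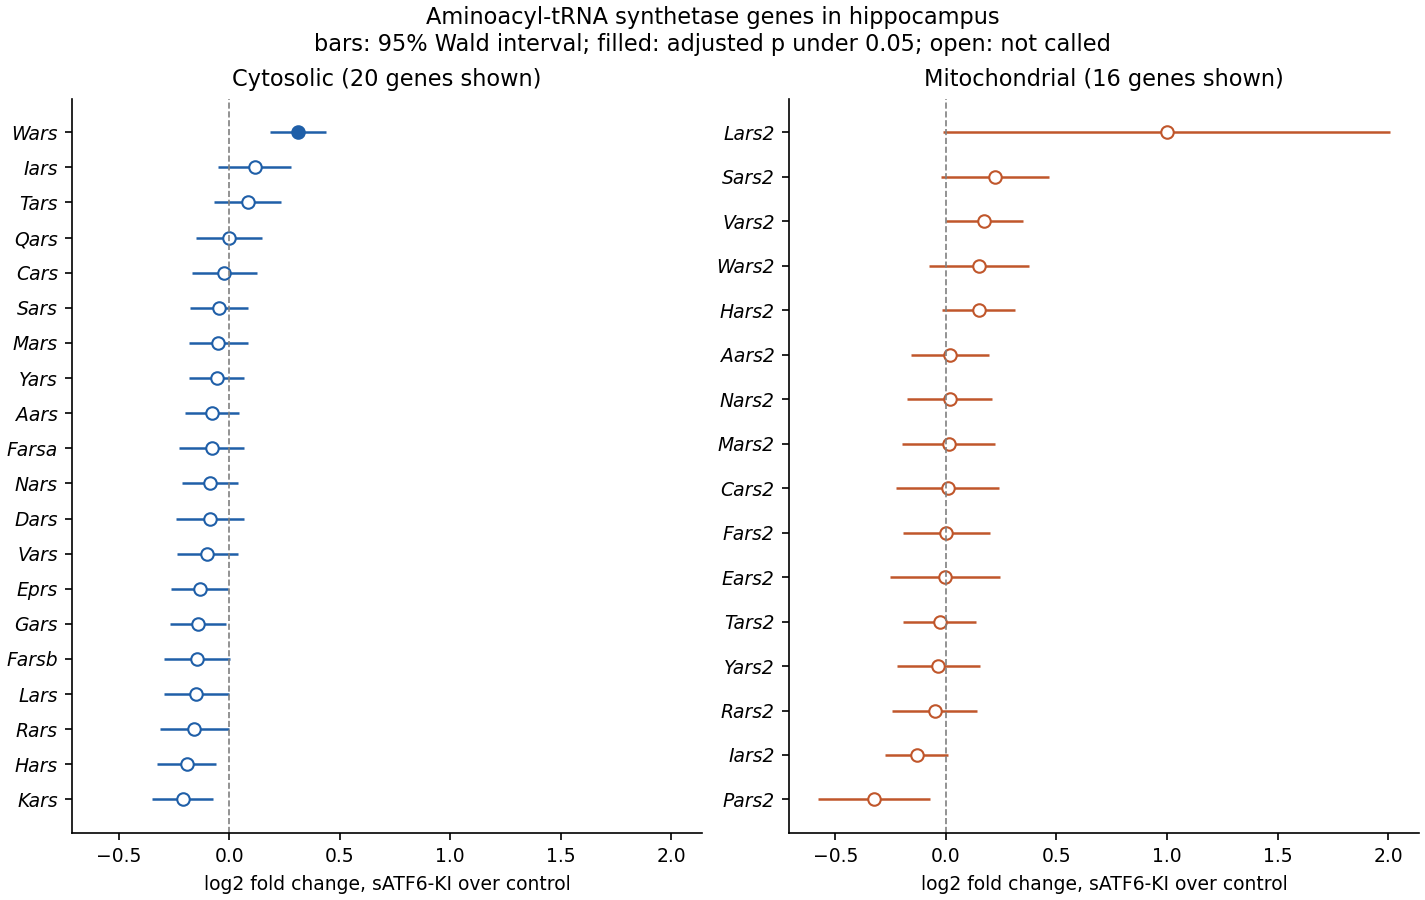
Log2 fold change (sATF6-KI over control) of 20 cytosolic synthetase genes on the left and 16 mitochondrial ones on the right, each with its 95% Wald interval. Wars, at 0.31, is the only filled point, and Lars2, at 0.999, has by far the widest interval.

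Wars lies on chromosome 12 from 108860030 to 108894174, minus strand (GENCODE M21, GRCm38). Its log2 fold change was 0.31 ± 0.06 in the authors' deposited table, with the authors' DESeq2 adjusted p = 8.32e-05. The 95% interval of its fold change ran from 1.14 to 1.36. By p-value Wars stood at place 240 of all 17385 genes, and by size at place 473 of the 592 genes called higher, whose median was 1.41-fold. The increase of Wars was thus small beside most increases in this comparison. Wars is also known as an interferon-inducible enzyme in human cells. In GENCODE M21 no exon of another gene overlaps its exons.

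The rest of the cytosolic set lay mostly just below 0. Of 20 genes 17 had a negative log2 fold change, with a median of -0.08 and a range from -0.21 to 0.31, and without Wars the highest was 0.12. Among all genes 48.7% were below 0 with a median of 0.00. Among protein-coding genes with a baseMean of at least 1000, a level that all 20 exceed, 62.8% were below 0 with a median of -0.04. baseMean is the authors' normalized expression averaged over all libraries.

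Kars, the lysyl-tRNA synthetase, was nearest to a call among the lower genes. It lies on chromosome 8 from 111993443 to 112011323 (GRCm38). Its log2 fold change was -0.21 ± 0.07 in the authors' deposited table, a 1.16-fold lower level, with the authors' DESeq2 adjusted p = 0.0513. It passed when the adjustment left out genes with a baseMean under 10 (adjusted p = 0.0484), over protein-coding genes alone (0.0468), and with fold changes centred on the median of all genes (0.0431), so its side of the threshold depends on these choices. Hars, the histidyl enzyme, was at -0.19 ± 0.07 in the authors' deposited table (the authors' DESeq2 adjusted p = 0.0771). Gars, the glycyl enzyme, whose human mutations cause an inherited neuropathy, was at -0.14 ± 0.06 in the authors' deposited table. Gars and Kars each also give the mitochondrial enzyme of their amino acid, for which mice have no separate gene.

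The multisynthetase complex gathers several cytosolic enzymes on scaffold proteins. Its 8 enzyme genes in the table are Dars, Eprs, Iars, Kars, Lars, Mars, Qars and Rars. Their median log2 fold change was -0.11, and none was called. The 12 cytosolic genes outside it had a median of -0.08 with Wars as the call. Eprs, which carries the glutamyl and prolyl enzymes in 1 protein, was at -0.13 ± 0.07 in the authors' deposited table. Rars, the arginyl enzyme, was at -0.16 ± 0.08 and Lars, the leucyl enzyme, at -0.15 ± 0.07 in the authors' deposited table. Dars, the aspartyl enzyme, was at -0.09 ± 0.08 in the authors' deposited table. Qars, the glutaminyl enzyme, was at 0.00 ± 0.08 and Iars, the isoleucyl enzyme, was at 0.12 ± 0.08 there, the highest of the 8. None of the 3 scaffold genes was called. Aimp1 was at -0.18 ± 0.07, Eef1e1 at -0.08 ± 0.09 and Aimp2 at -0.08 ± 0.10 in the authors' deposited table.

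By structural class, the median log2 fold change of the 10 cytosolic class I genes, Wars included, was -0.05. That of the 10 class II genes, with no call, was -0.09. Eprs, with its glutamyl and prolyl enzymes in 1 protein, was counted in class I alone. The phenylalanyl enzyme is built from 2 kinds of subunit. Farsa, the alpha subunit, was at -0.08 ± 0.08 and Farsb, the beta subunit, at -0.15 ± 0.08 in the authors' deposited table. Nars, the asparaginyl enzyme, had the highest level per length of the cytosolic genes, and its log2 fold change was -0.09 ± 0.07 in the authors' deposited table. Sars, the seryl enzyme, was at -0.04 ± 0.07 and Yars, the tyrosyl enzyme, at -0.06 ± 0.06 in the authors' deposited table. Vars, for valine, was at -0.10 ± 0.07 there, Cars, for cysteine, at -0.02 ± 0.08, and Tars, for threonine, at 0.08 ± 0.08. Aars, the alanyl enzyme, was at -0.08 ± 0.06 in the authors' deposited table. Exosc6 shares 1326 exon bases with Aars on the same strand in GENCODE M21, so the value of Aars is uncertain.

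Mars, the methionyl enzyme, has a neighbour that rose strongly. Mars runs on the minus strand of chromosome 10 from 127296221 to 127311786 (GRCm38), and its end overlaps 68 exon bases of Ddit3 on the opposite strand. In the authors' deposited table Ddit3, the gene for the transcription factor CHOP, was 2.52-fold higher, with a 95% interval from 2.21 to 2.87. In the authors' deposited table the log2 fold change of Mars was -0.05 ± 0.07, with a 95% interval of its fold change from 0.881 to 1.06. Sources used here do not give the strand setting of the authors' counting, so values of genes with an overlapping partner on the opposite strand are uncertain. Among such partners with a row in the table, Rab3gap2 shares 2034 exon bases with Iars2, Nrn1 501 with Fars2 and Naxd 422 with Cars2. C230038L03Rik shares 284 with Nars2, Sgpp2 248 with Farsb, Lyrm4 115 with Fars2 and C77080 30 with Yars. Ubfd1 shares 89 with Ears2 and was itself called higher, at 0.20 ± 0.07 (the authors' DESeq2 adjusted p = 0.0489). Its value was looked up after values were seen.

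Synthetases known from earlier work as ATF4-responsive were looked at as a set of 13: Aars, Cars, Eprs, Gars, Iars, Lars, Mars, Nars, Sars, Tars, Vars, Wars and Yars. Wars was the 1 call, the median log2 fold change was -0.06, and for 11 of 13, or 84.6%, the upper end of the 95% interval lay below a 1.2-fold rise. Among protein-coding genes with a baseMean of at least 1000, which all 13 exceed, that share was 86.3%. The 7 other cytosolic genes had no call and a median of -0.15. Other genes of the amino acid response were listed beside them, with earlier results of these data known. In the authors' deposited table, of 30 listed genes 4 rose and none fell, and the median log2 fold change was 0.12. Over all genes 3.41% were called higher and 1.93% lower. The unadjusted p was under 0.05 for 9 genes, all with a higher level, against 1425 higher and 1319 lower of all 17385 genes. Pycr1, which makes proline, was 2.80-fold higher, Trib3, a pseudokinase, 2.57-fold, and Ddit3 2.52-fold in the authors' deposited table. The authors' deposited table gave a smaller rise for Atf4 itself, 0.26 ± 0.07 on the log2 scale. Asns, the asparagine synthetase, was at -0.12 ± 0.07 and Xpot, which exports transfer RNA from the nucleus, at -0.05 ± 0.06 in the authors' deposited table. Both were chosen after their values were seen.

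**Figure D2:**
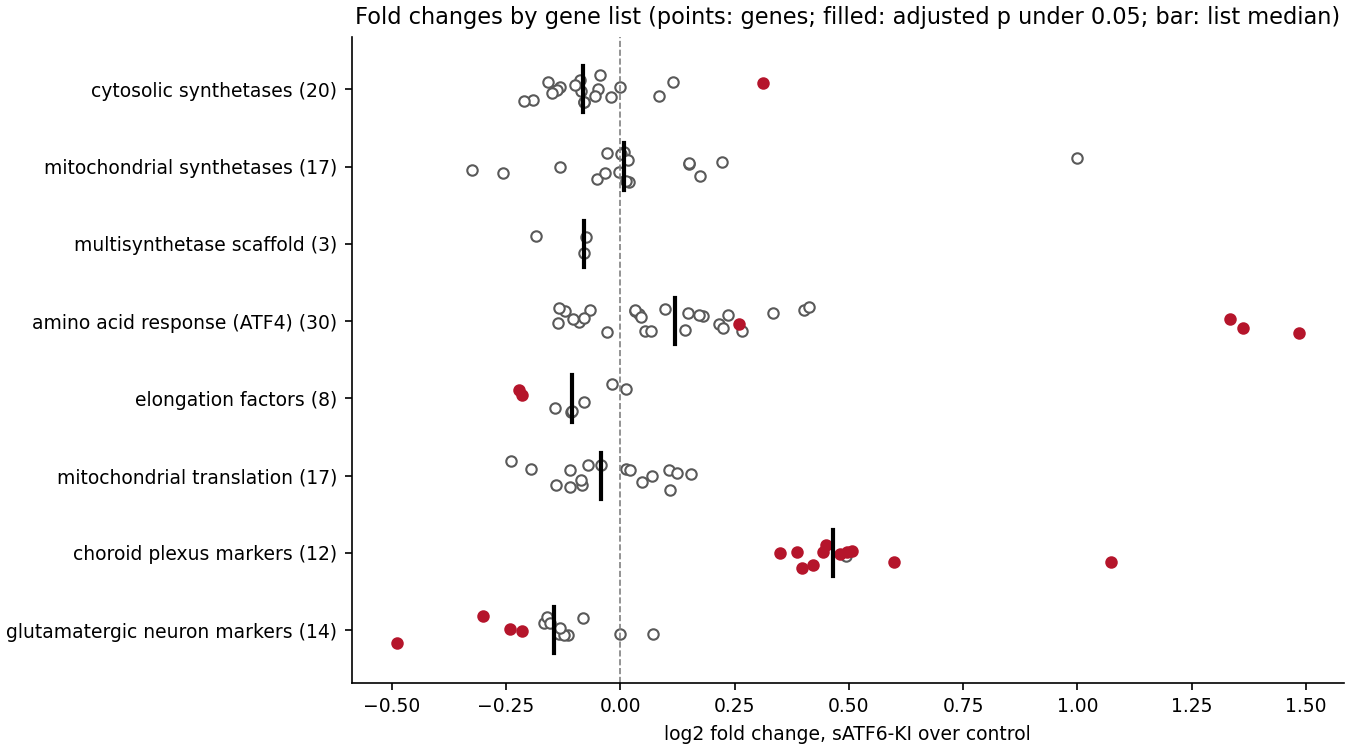
Log2 fold change (sATF6-KI over control) of each gene by list, with filled points at adjusted p under 0.05 and a bar at the list median. The 2 synthetase lists hold 1 filled point, Wars, while the amino acid response list holds 4 and the choroid plexus list 11.

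Promoters were compared for the letters of the composite site that ATF4 and C/EBP proteins are known to bind, TGATGNAA on either strand, in the 250 bases before and 50 after each RefSeq start (GRCm38.p6). RefSeq promoters matched 27 of the 37 synthetase genes, 13 cytosolic and 14 mitochondrial. Wars is among the 10 that were not matched, so its promoter was not searched. The letters occurred in 5 of the 13 cytosolic promoters (Aars, Gars, Iars, Tars and Yars), in none of the 14 mitochondrial ones and in 4.51% of all 27025 genes with a promoter. Of 26 amino acid response genes with a promoter 8 held them, among them Pycr1 and Trib3. A match is a run of letters, and binding was not measured here. Below are Aars, which holds the letters at 2 places, Gars and Iars, with the lowest and the highest log2 fold change of the 5, and the raised genes Pycr1 and Trib3. Capitals mark the match or its reverse complement, and each line reads 5′ to 3′ along the gene.
Aars (chr8:111033592-111033891, plus strand): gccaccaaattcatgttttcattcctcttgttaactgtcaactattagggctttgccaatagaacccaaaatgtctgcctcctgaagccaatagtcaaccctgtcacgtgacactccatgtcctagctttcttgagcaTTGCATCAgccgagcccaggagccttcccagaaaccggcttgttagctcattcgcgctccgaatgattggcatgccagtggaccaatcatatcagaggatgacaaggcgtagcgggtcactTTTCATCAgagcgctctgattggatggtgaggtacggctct
Gars (chr6:55037751-55038050, plus strand): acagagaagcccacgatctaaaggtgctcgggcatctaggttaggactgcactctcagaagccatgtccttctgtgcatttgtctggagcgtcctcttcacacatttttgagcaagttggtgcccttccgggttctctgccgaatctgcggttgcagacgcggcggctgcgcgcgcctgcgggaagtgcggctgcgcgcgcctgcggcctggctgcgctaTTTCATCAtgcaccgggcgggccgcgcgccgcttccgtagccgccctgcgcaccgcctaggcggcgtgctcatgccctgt
Iars (chr13:49681880-49682179, plus strand): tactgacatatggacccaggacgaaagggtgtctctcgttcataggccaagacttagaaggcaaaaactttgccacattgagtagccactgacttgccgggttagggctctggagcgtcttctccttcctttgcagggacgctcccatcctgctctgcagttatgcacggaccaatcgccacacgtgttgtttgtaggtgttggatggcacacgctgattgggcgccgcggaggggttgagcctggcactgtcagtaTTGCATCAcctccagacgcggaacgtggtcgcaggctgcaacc
Pycr1 (chr11:120643699-120643998, minus strand): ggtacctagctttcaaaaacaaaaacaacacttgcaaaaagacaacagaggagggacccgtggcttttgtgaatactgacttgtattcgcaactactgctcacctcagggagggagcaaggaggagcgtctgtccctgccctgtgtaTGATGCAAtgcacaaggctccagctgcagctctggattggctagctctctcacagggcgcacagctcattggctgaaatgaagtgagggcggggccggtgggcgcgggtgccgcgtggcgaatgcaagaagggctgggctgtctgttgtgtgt
Trib3 (chr2:152344011-152344310, minus strand): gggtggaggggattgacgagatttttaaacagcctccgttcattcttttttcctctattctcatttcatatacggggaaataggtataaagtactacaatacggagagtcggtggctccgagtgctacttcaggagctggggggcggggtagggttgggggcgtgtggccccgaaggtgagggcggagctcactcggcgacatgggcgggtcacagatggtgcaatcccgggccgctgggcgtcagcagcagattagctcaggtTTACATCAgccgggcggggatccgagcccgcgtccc

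Of the 8 amino acid response genes with these letters 2 were called in the authors' deposited table, both higher, Pycr1 at 1.48 ± 0.24 and Trib3 at 1.36 ± 0.33. They were chosen for printing because they had risen. The other 6 were not called, with Chac1 at 0.40 ± 0.14 (the authors' DESeq2 adjusted p = 0.059), Nupr1 at 0.33 ± 0.19, Slc7a11 at 0.22 ± 0.21, Vldlr at 0.07 ± 0.07, Atf3 at -0.08 ± 0.37 and Asns at -0.12 ± 0.07 in the authors' deposited table. Gars was at -0.14 ± 0.06, Aars at -0.08 ± 0.06, Yars at -0.06 ± 0.06, Tars at 0.08 ± 0.08 and Iars at 0.12 ± 0.08 in the authors' deposited table, none called. In Aars the matches start 112 bases before and at base 10 after the start, and in Gars 30 bases before it. The ER stress element known for ATF6 with NF-Y, here CCAAT and CCACG with 9 bases between them, was in none of the 27 synthetase promoters on either strand and in 0.137% of all genes with a promoter. The ATF6 site TGACGTGG was likewise in none of the 27 and in 0.714% of all. Both are so rare among all genes that their absence from 27 promoters is not a result about the synthetases. The promoter of Wars was not among those searched.

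The mitochondrial set was spread on both sides of 0. Of 17 genes 7 had a negative and 10 a positive log2 fold change, with a median of 0.01, and the authors' DESeq2 test called none. The unadjusted p was under 0.05 for 1 gene with a higher and 2 with a lower level, against 1425 and 1319 of all 17385 genes. Pars2, for proline, was at -0.32 ± 0.13 in the authors' deposited table (the authors' DESeq2 adjusted p = 0.138). Iars2, for isoleucine, was at -0.13 ± 0.07 in the authors' deposited table. On the other side were Sars2, for serine, at 0.22 ± 0.12, Vars2, for valine, at 0.17 ± 0.09, Wars2, for tryptophan, at 0.15 ± 0.12, and Hars2, for histidine, at 0.15 ± 0.08, in the authors' deposited table. Errors were larger than for the cytosolic genes, with a median of 0.10 for mitochondrial and 0.07 for cytosolic genes.

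A further 9 mitochondrial enzymes had log2 fold changes from -0.05 to 0.02. Rars2 was at -0.05 ± 0.10, Yars2 at -0.03 ± 0.10, Tars2 at -0.03 ± 0.08 and Ears2, for glutamate, at 0.00 ± 0.13 in the authors' deposited table. Fars2, for phenylalanine, was at 0.00 ± 0.10 in the authors' deposited table, Cars2 at 0.01 ± 0.12, Mars2 at 0.01 ± 0.11, Nars2 at 0.02 ± 0.10 and Aars2 at 0.02 ± 0.09. Mitochondrial translation factors and transfer RNA modifying enzymes, listed as their partners, gave no call in 17 measured genes by the authors' DESeq2 test. By unadjusted p under 0.05, 1 was lower and none higher. With 5.34% of all genes called, and 1319 of 17385 lower by unadjusted p, these counts are not a result about the list. Mrrf, which recycles mitochondrial ribosomes, was at -0.24 ± 0.10 and Gfm1, an elongation factor, at -0.11 ± 0.07 in the authors' deposited table.

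Lars2, the mitochondrial leucyl enzyme, was the exception in both level and error. It lies on chromosome 9 from 123366927 to 123462666 (GRCm38). Its log2 fold change was 0.999 ± 0.52 in the authors' deposited table, which was not called (the authors' DESeq2 adjusted p = 0.324). As a fold change this is 2.00, with a 95% interval from 0.992 to 4.02. Its baseMean of 11787 was the highest of the 37 genes, yet its error was 3.97 times the next largest among them. The deposited standard error of Lars2 was 0.08, and the Wald error of 0.52 is the one that goes with its p-value. Among 7056 genes with a baseMean of at least 1000, Lars2 had the seventh largest Wald error.

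The genes beside Lars2 in that ranking, chosen after their values were seen, were mostly noncoding. The 8 genes of largest error were Mir5115, Zic1, Mir5105, RP23-81C12.1, Gm15564, Gm23935, Lars2 and RP23-81C12.3, and the table marks 6 of them as not protein-coding. These 6 had log2 fold changes from 0.70 to 1.62 in the authors' deposited table, and none was called. RP23-81C12.3 had a baseMean of 207783. One annotated transcript of Gm15564, a noncoding gene on chromosome 16, shares 72 aligned bases at 98.6% identity with the Lars2 messenger RNA, at bases 3278 to 3349 of its 3894. In a search of all synthetase transcripts against those noncoding genes that GENCODE M21 holds, Lars2 alone had a match. The value of Lars2 is therefore uncertain, and the part of shared reads in it was not tested.

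**Figure D3:**
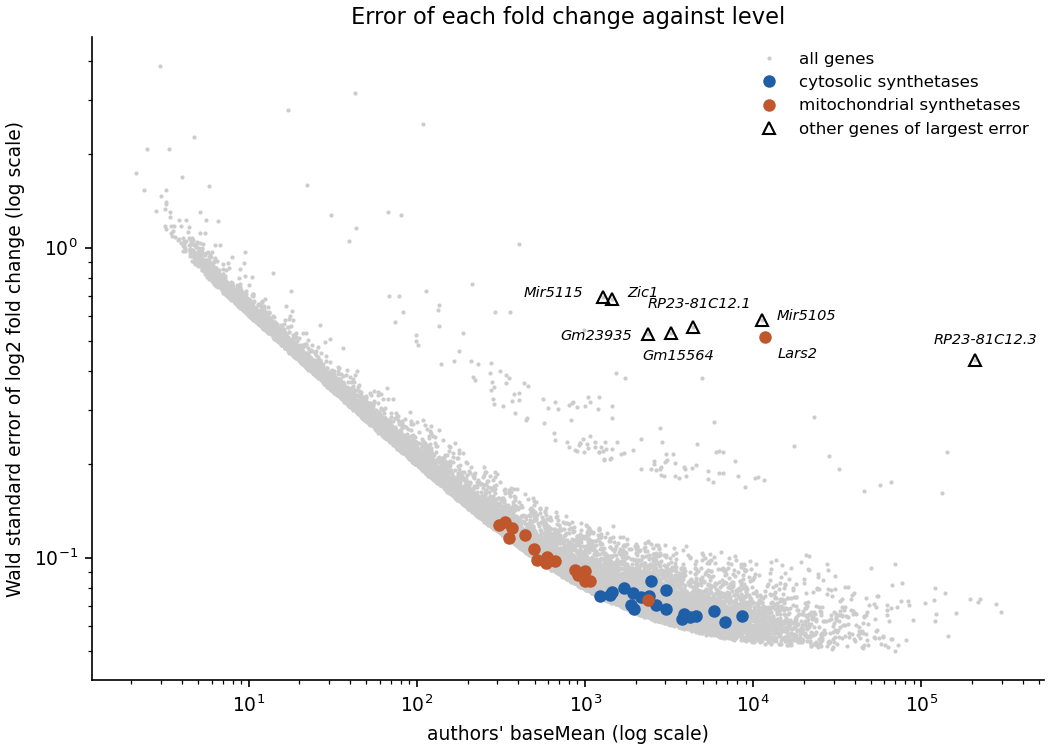
Wald standard error of the log2 fold change against the authors' baseMean for all genes, both on log axes, with synthetases in colour and the other genes of largest error as triangles. Lars2 sits at 0.52, far above the other synthetases, whose largest error is 0.13.

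Cytosolic synthetase messages were mostly more abundant per length than mitochondrial ones. The authors' baseMean was divided by the length in kilobases of each gene's longest coding transcript in GENCODE M21. On this scale cytosolic genes ran from 361 for Tars to 3100 for Nars, with a median of 987. Mitochondrial genes ran from 43.9 for Mars2 to 433 for Iars2 with Lars2 left out, and Lars2 was at 3027. Wars was at 1485 and Wars2 at 79.5. These are means over both groups with no spread over mice, so the order of neighbouring genes is not resolved. Lengths by annotation can also exceed the transcripts that brain makes, as with the 11294 bases listed for Mars2. The order also depends on the length used. Divided by the length of all merged exons, Cars was at 212, Eprs at 214 and Tars at 245, all below Iars2 at 266.

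**Figure D4:**
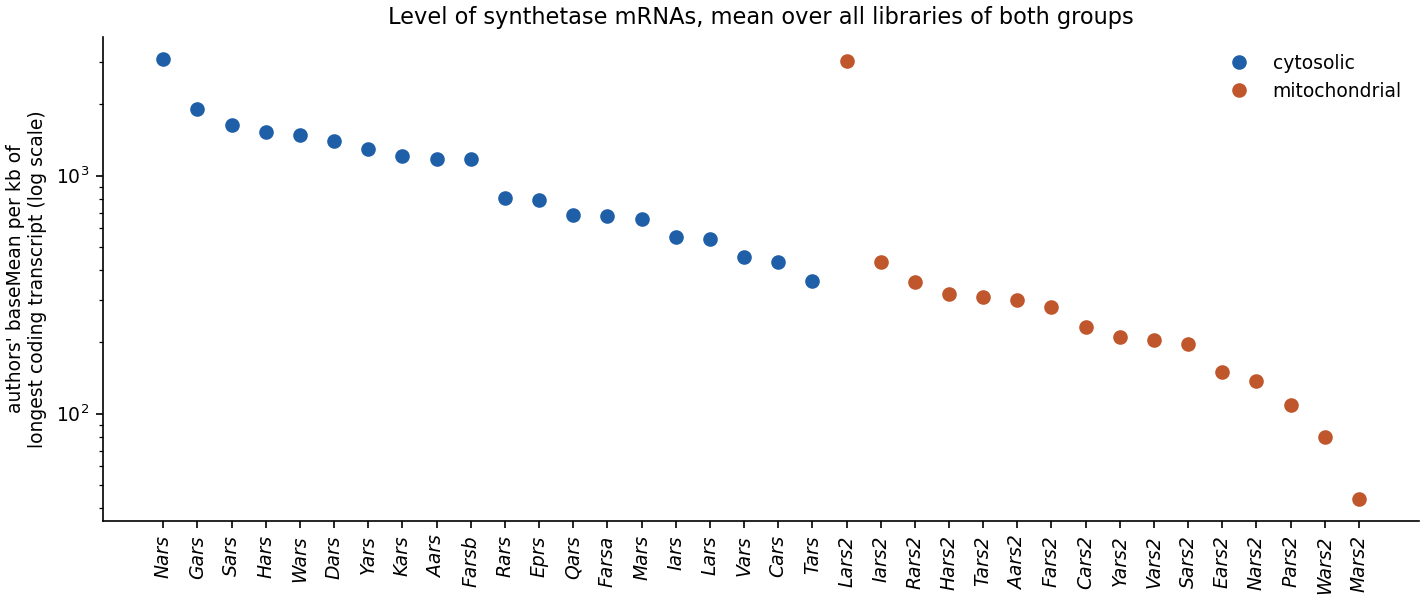
Level of 20 cytosolic and 16 mitochondrial synthetase genes as the authors' baseMean per kilobase of its longest coding transcript, on a log axis, from high to low within each set. Apart from Lars2 at 3027, no mitochondrial gene exceeds Iars2 at 432.7. Of 20 cytosolic genes 19 do, Cars barely so at 433.4.

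For 14 amino acids the table holds a pair of cytosolic and mitochondrial enzymes whose symbols differ only by the final 2. Eprs with Ears2 and Pars2, and Farsa and Farsb with Fars2, also share amino acids but were not paired. The cytosolic level per length was the higher in 13 of the 14 pairs, all but Lars and Lars2, with a median ratio of 4.36 and the largest ratio, 22.7, for Nars over Nars2. In 10 of 14 pairs the 2 log2 fold changes had opposite signs, and in 10 the cytosolic one was the lower. The difference of cytosolic minus mitochondrial log2 fold change was largest in size for Lars and Lars2, at -1.15, with the uncertain value of Lars2 in it. It was -0.34 for Hars and Hars2, -0.27 for Vars and Vars2 and -0.27 for Sars and Sars2. It was 0.25 for Iars and Iars2 and 0.16 for Wars and Wars2. Hars and Hars2 lie head to head on chromosome 18 and share 195 exon bases on opposite strands. No error can be given for these differences, because the covariance of genes measured in the same libraries is not known from fold changes alone, and they were not tested.

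**Figure D5:**
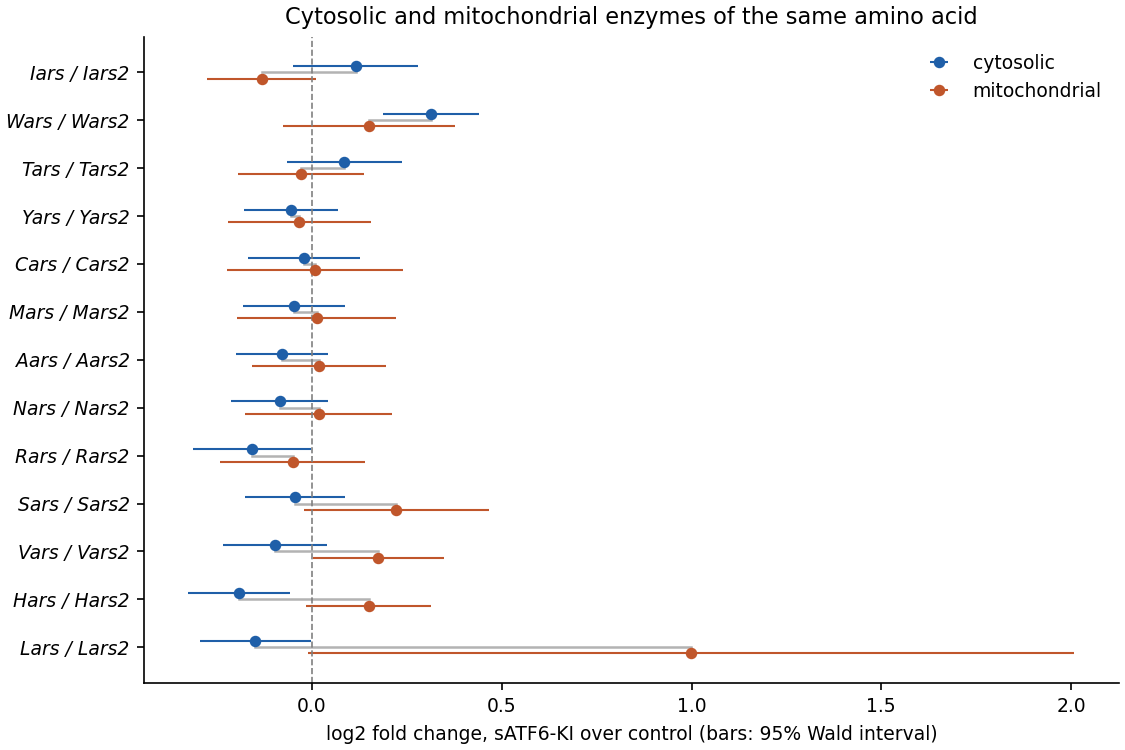
Log2 fold change (sATF6-KI over control) with 95% Wald intervals for the cytosolic and the mitochondrial enzyme of the same amino acid, 13 pairs drawn. Among these pairs only 1 has intervals that do not overlap, Hars at -0.19 and Hars2 at 0.15.

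Partners of the cytosolic enzymes were looked at by list. Among the elongation factor genes, Eef1a1 encodes a factor that hands the charged transfer RNA to the ribosome. Their list of 8 also holds Eef1e1, counted among the scaffold genes above. In the authors' deposited table, of these 8 genes 2 fell and none rose, against 1.93% lower and 3.41% higher of all genes. Eef1a1 was at -0.21 ± 0.06 (the authors' DESeq2 adjusted p = 0.00826) and Eef1b2, its exchange factor subunit, at -0.22 ± 0.07 (adjusted p = 0.0232) in the authors' deposited table. Their list had a median of -0.11. Of 18 genes for other steps of charging, proofreading and transport of transfer RNA, which include Eef1a1, that gene was the only call. Tarsl2, a second threonyl enzyme whose symbol the choice of genes did not take in, was at -0.13 ± 0.07 in the authors' deposited table. Of 10 measured genes of the mitochondrial stress response none was called by the authors' DESeq2 test, and 1 was lower by unadjusted p under 0.05. By that measure 1319 of all 17385 genes were lower. With 5.34% of all genes called, 1 call in 18 and none in 10 are not results about these lists. Hspe1, a mitochondrial chaperonin subunit, was at -0.24 ± 0.10 and Clpx, a protease subunit, at -0.13 ± 0.08 in the authors' deposited table.

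Markers of several cell types moved in the same comparison as the small synthetase differences. These lists were chosen with earlier results of these data known, so counts of calls in them describe the lists and are not a test. Among 7006 protein-coding genes with a baseMean of at least 1000, 281 were called higher and 297 lower, with a median log2 fold change of -0.04. Of 12 choroid plexus markers 11 rose in the authors' deposited table, with a median log2 fold change of 0.47 and the authors' baseMean from 679 to 131970. They were Tmem72, with the highest log2 fold change at 1.07, Folr1, with the lowest of the 11 at 0.35, and Kl, Prlr, Clic6, Kcne2, Sostdc1, Kcnj13, Otx2, Aqp1 and Ttr. Of 14 glutamatergic forebrain neuron markers 4 fell and none rose, with a median of -0.14. They were Itpka at -0.49 ± 0.07, Rprm at -0.30 ± 0.09, Zbtb18 at -0.24 ± 0.06 and Bcl11b at -0.22 ± 0.06 in the authors' deposited table. Of 9 astrocyte markers 1 fell, Aldoc at -0.25 ± 0.08, and of 7 microglia markers 1 fell, P2ry12 at -0.30 ± 0.08, in the authors' deposited table. Medians were -0.16 for astrocyte, -0.07 for microglia and -0.16 for oligodendrocyte markers. The authors' DESeq2 test called none of the 9 oligodendrocyte genes, and 4 were lower by unadjusted p under 0.05. Of 7006 protein-coding genes with a baseMean of at least 1000, 1083 were lower by that measure. Opalin was at -0.21 ± 0.10 and Olig2 at -0.21 ± 0.08 in the authors' deposited table. Of 8 endothelial and mural markers 1 rose, Pdgfrb at 0.25 ± 0.08 in the authors' deposited table, with a list median of 0.15. The 11 interneuron markers had a median of 0.05, no call by the authors' DESeq2 test and no unadjusted p under 0.05, with Reln at 0.17 ± 0.09 and Pvalb at -0.14 ± 0.09. Levels per group are not given for any list, and the part of these shifts in the values of Wars and the other synthetases was not tested.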

How the data were processed

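Per the labels' protocols, Trizol RNA of frozen hippocampus was DNase treated and went into stranded KAPA messenger RNA libraries. The submitters' processing notes name Trim Galore, cutadapt, STAR, HTSeq and DESeq2 without versions. Sources used here give neither the authors' genome build and annotation nor their filters. The authors' table, per the file headers, holds a log2 fold change, a Wald statistic (a score) and a p-value, raw and adjusted. Its baseMean is the authors' normalized expression signal averaged over all libraries. A further 6 columns per library match no sample label and were not used, so depth per sample is unknown and precision is that of the authors' test.

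The deposited p-value equalled the normal p of the Wald statistic within 2.89e-15, and the adjusted p a Benjamini-Hochberg adjustment within 3.88e-15. The standard error the authors deposited followed from the Wald error with 1 constant, within 2% of 19.7 for 98.4% of genes, and the Wald error was used. Intervals are 95% Wald intervals. Members and lists were chosen with earlier results of these data known. Every member is named except 1 that is not reported here, and of each related list the called genes, or otherwise the 2 of smallest p, with exceptions marked. Promoters to print were chosen after values were seen. Positions and lengths came from GENCODE M21 (GRCm38) by gene ID, with all 37 matched, and promoters from RefSeq. Shared sequence was searched with blastn 2.17.0 at an E value of 1e-05. The Benjamini-Hochberg step alone was run on simulated, independent Wald statistics with the Wald errors of these genes. That run checks the code and does not test the authors' DESeq2 errors. Work was done in Python 3.11.15 with scipy 1.17.1, numpy 2.4.6, pandas 2.3.3 and matplotlib 3.10.9. The alternatives are other thresholds, adjustments, filters and centring.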

Additional observations from a re-analysis of the deposited data

How the results depend on the processing

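The fold changes are the same deposited values under every setting except centring, so alternatives mostly move the threshold by construction. The single cytosolic call was 3 at an adjusted p under 0.1, 0 at a fold change of at least 1.5, and 2 each with a baseMean of at least 10, with protein-coding genes only and with centring, the added gene being Kars, lower. Mitochondrial calls, 0 in the main result, were 1 at an adjusted p under 0.1. Over all genes the 928 calls were 514 at an adjusted p under 0.01, 268 by Bonferroni and 217 with the 1.5-fold minimum. Wars lost its call at the 1.5-fold minimum only. Of the other genes named, the calls of Atf4, Eef1b2, Otx2, Aqp1, Folr1, Ttr, Rprm, Aldoc, Pdgfrb and Ubfd1 ended at an adjusted p under 0.01. Bonferroni ended these and those of Eef1a1, Trib3, Kcne2, Sostdc1, Kcnj13, Zbtb18, Bcl11b and P2ry12. A 1.2-fold minimum ended those of Eef1a1, Eef1b2, Atf4, Zbtb18, Bcl11b, Aldoc, Pdgfrb and Ubfd1. At the 1.5-fold minimum only Pycr1, Trib3, Ddit3, Tmem72 and Prlr kept theirs. Centring lowered every log2 fold change by the median of all genes, 0.00499, and put Fars2 at -0.0039, against 0.0011 as deposited, a change of sign. It also ended the call of Ubfd1. The cytosolic median was -0.09 under centring and -0.06 as a mean; the mitochondrial mean was 0.05, and 0.00 without Lars2, which was left out after seeing the data. Without Wars, left out likewise, the cytosolic median was -0.09. No paired analysis was possible because the columns per library carry names that match no sample. For the same reason limma and edgeR fits, pseudocounts and fits without single replicates were not run. Depth limits are unknown.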
